A study of Arabidopsis thaliana with 12 samples.

Results

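Protein kinases whose catalytic domain is assigned to the Pkinase_Tyr domain model were described in Arabidopsis thaliana seedlings after inhibition of cellulose synthesis, after a damage peptide, and after both. The deposited table gives this family label to 356 genes. The 237 described here had a mean of at least 0.5 FPKM (fragments per kilobase of the gene, adjusted for sequencing depth) over all libraries and were neither cysteine-rich (symbols starting CRK) nor wall-associated (symbols starting WAK) kinases. A further 26 identifiers, among them several CrRLK1L receptors and the PEP and flagellin receptors, were set aside by the rule. Of the 356 genes, 79 were under the level threshold, 19 were CRK genes, 8 were WAK genes and 13 were removed by identifier. Just outside the level threshold lay RBK2 with 0.396, AT3G46340 with 0.431 and PERK12 with 0.498 FPKM, and just inside it AT3G57740 with 0.507, AT3G46370 with 0.510 and AT4G29990 with 0.525 FPKM.

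The libraries were made from whole seedlings of the wild-type strain Col-0, 10 days old, grown in liquid half-strength Murashige and Skoog medium and sampled 6 h after treatment. The first group received 600 nM isoxaben and 10 nM PEP3 together, the second 600 nM isoxaben, the third 10 nM PEP3, and the fourth, a mock, DMSO alone. All 4 groups contained the same amount of DMSO, and each had 3 libraries, which the submitters call biological replicates. Isoxaben is a herbicide that blocks cellulose synthesis at the plasma membrane. PEP3 is a plant elicitor peptide released from a PROPEP precursor and perceived by the receptor PEPR1. Libraries held between 16995775 and 22793764 fragments assigned to genes, of which 87000 to 134585 fell on the 237 kinase genes.

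Receptor-like kinases are plant membrane proteins with an outer domain that binds a peptide, a sugar or a wall component and an inner kinase domain that passes the signal on. They work in complexes: a ligand-binding receptor recruits a co-receptor, and receptor-like cytoplasmic kinases, which lack the outer domain, carry the signal into the cell. In seedlings such kinases act in meristem size control, brassinosteroid signalling, wall surveillance and immunity. The Pkinase_Tyr label is a match to a domain model. It does not show tyrosine kinase activity, since nearly all plant receptor-like kinases are serine/threonine kinases.

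The name receptor-like kinase covered only part of the list. In the RefSeq proteins, 124 of the 237 genes encoded a stretch as hydrophobic as a membrane span (mean Kyte-Doolittle hydropathy of at least 1.9 over 19 residues, after the first 40). Another 112 had no such stretch, and AT1G01448 had no protein annotated; 7 genes lay less than 0.3 above this hydropathy limit and 6 up to 0.3 below it. The genes without a stretch include known soluble kinases, such as the Raf-like kinases CTR1, EDR1 and HT1, the STY kinases, and receptor-like cytoplasmic kinases of the PBL and BSK families. The genes are therefore called Pkinase_Tyr kinases below. One cysteine-rich kinase, EMB1290 (also known as CRK17), remained in the list because its deposited symbol does not start with CRK. CrRLK1L genes whose identifiers are not among those the rule sets aside, such as ANX1, also remained.

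Mean levels ran from 0.507 to 46.8 FPKM, with a median of 6.20 and quartiles of 2.00 and 11.7. Means under 2 FPKM were found for 59 genes and means of at least 10 FPKM for 72. The threshold of 0.5 FPKM was applied to the mean over all libraries, treated ones included. Genes with a lower mean in DMSO, such as PBL20, SD17 and AT1G61550, passed it through the treated libraries. The number of such genes was not computed. A rise of such a gene against DMSO is thus partly set by the rule. The most abundant were STY13 with 46.8 FPKM, CTR1 with 41.5, the negative regulator of ethylene signalling, AT3G17410 with 40.5 and VIK with 40.3. Summed over the 237 genes, the level was 2156, 2262 and 2203 FPKM in the libraries with both treatments, 2246, 2293 and 2191 with isoxaben, 1956, 2007 and 2011 with PEP3, and 1805, 1821 and 1823 with DMSO. The sums of the 3 DMSO libraries lay below those of the other 9.

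The 4 genes with the largest rises after isoxaben are shown first with the 250 bases upstream of their annotated start, because damage-responsive kinase genes are often bound there by WRKY factors. Capitals mark the W box, the core WRKY site, searched as TTGACC or TTGACT on both strands; its match on the other strand reads GGTCAA or AGTCAA. Sequences are 5′ to 3′ on the gene's strand, from the TAIR10.1 assembly with RefSeq annotation. The windows are, on chromosome 1, 19278799 to 19279048 (minus strand) for AT1G51890, on chromosome 5, 8856810 to 8857059 (minus strand) for AT5G25440, on chromosome 4, 11397727 to 11397976 (minus strand) for B120, and on chromosome 1, 19139880 to 19140129 (plus strand) for AT1G51620.
AT1G51890: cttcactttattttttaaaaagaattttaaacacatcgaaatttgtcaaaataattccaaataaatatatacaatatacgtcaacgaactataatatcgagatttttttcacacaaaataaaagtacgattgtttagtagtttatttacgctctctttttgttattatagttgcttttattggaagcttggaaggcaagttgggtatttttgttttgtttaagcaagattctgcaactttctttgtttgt
AT5G25440: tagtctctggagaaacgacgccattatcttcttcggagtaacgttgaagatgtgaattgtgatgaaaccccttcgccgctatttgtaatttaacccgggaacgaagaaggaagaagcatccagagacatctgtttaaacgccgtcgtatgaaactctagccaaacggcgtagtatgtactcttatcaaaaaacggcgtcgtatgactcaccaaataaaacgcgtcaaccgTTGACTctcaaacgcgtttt
B120: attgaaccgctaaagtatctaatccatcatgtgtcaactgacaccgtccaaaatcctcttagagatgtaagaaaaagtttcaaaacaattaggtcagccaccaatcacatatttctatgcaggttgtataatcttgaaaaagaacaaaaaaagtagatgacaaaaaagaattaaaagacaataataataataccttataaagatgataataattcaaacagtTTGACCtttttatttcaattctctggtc
AT1G51620: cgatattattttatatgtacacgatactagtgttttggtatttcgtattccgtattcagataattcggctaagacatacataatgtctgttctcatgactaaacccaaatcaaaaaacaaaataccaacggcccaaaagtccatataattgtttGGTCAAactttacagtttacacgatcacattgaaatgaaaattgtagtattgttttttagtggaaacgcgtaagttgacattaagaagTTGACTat
AT5G25440 had 1 W box, starting at -20 from the gene start, B120 had 1 at -28, and AT1G51620 had 2, at -96 and -8. AT1G51890 had none in this window, which says nothing about sites elsewhere. The windows of AT5G25440 and AT1G51620 each overlap 1 other annotated gene.

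At least 1 W box was present in the window of 45.6% of the 79 genes that rose after isoxaben, of 35% of the 20 that fell and of 29.7% of the 138 not called. It was present for 52.6% of the 38 genes that rose after PEP3 and for 35.4% of all 237 kinase genes, against 28.5% of the 19523 tested protein-coding genes and 27.8% of all genes with a window. The TGACG element, the core site of TGA factors, was present for 25.3% of the genes that rose after isoxaben, 10% of those that fell and 21.7% of those not called, against 19.2% of tested protein-coding genes. These shares describe letters in a window, not bound sites, and were not tested.

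Isoxaben was compared with DMSO to ask which kinase transcripts respond to inhibited cellulose synthesis. The larger part of the changes were rises: 79 genes rose and 20 fell, so that 99 of 237 (41.8%) changed, against 32.5% of all 20248 genes tested. The share that rose was 33.3%, against 17.3% of all genes tested, and the share that fell 8.44%, against 15.2%. Changes are differences of log2(FPKM + 1), a scale on which weakly expressed genes show smaller changes than in FPKM, and were called at an adjusted p under 0.05 (limma over all 20248 genes, Benjamini-Hochberg adjustment). The median change was 0.09 over the 237 kinases and -0.01 over all genes tested. A change of at least 1 was found for 20 kinases, all of them higher after isoxaben. The share of all genes tested with a change of this size was not computed, here or in the other comparisons.

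**Figure D1:**
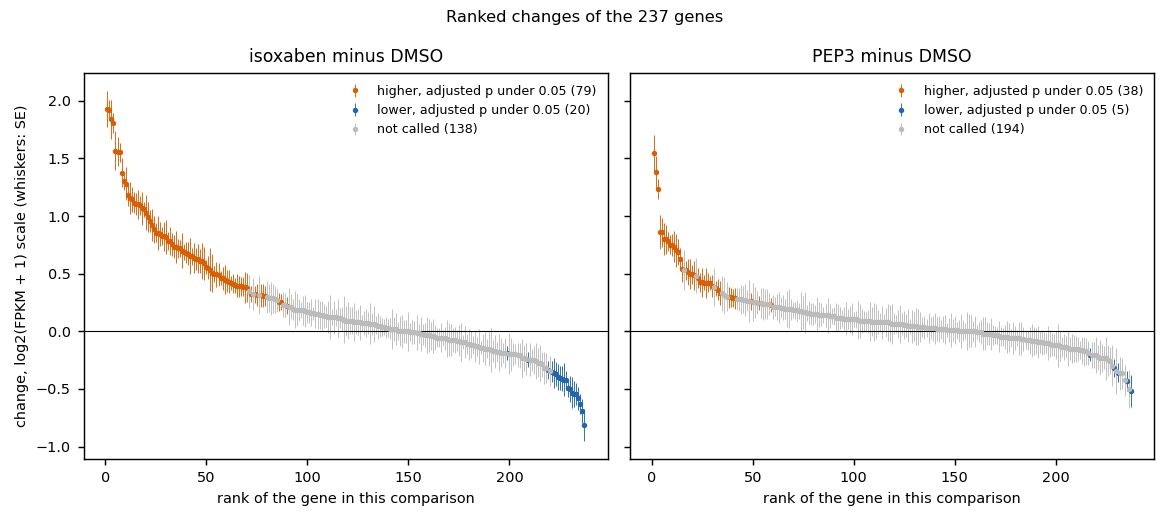
Changes of the 237 Pkinase_Tyr kinase genes in rank order, isoxaben minus DMSO on the left and PEP3 minus DMSO on the right, on the log2(FPKM + 1) scale with standard errors. Rises (orange, 79 after isoxaben and 38 after PEP3) outnumber and exceed falls (blue, 20 and 5), and most genes were not called (grey).

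AT1G51890, a leucine-rich repeat receptor kinase gene (chromosome 1, 19274604 to 19278798), had 10.5, 15.6 and 9.92 FPKM after isoxaben, against 1.96, 2.16 and 3.06 FPKM in DMSO. The groups lay far apart, and the isoxaben libraries varied more among themselves than the DMSO libraries did. Its change of 1.93 (SE 0.158, limma adjusted p 7.63e-07) was the largest of the 237. AT5G25440, a kinase without a membrane stretch (chromosome 5, 8854507 to 8856809), had 27.9, 30.2 and 25.8 FPKM after isoxaben, against 6.27, 6.28 and 7.37 FPKM in DMSO (change 1.92, SE 0.0853, limma adjusted p 4.50e-09). B120, an S-domain receptor kinase gene (chromosome 4, 11394295 to 11397726), had 11.2, 14.8 and 9.20 FPKM after isoxaben, against 2.20, 2.28 and 3.07 FPKM in DMSO, a change of 1.84 (SE 0.171). AT1G51620 (chromosome 1, 19140130 to 19141926), annotated only as a protein kinase, had 10.4, 9.67 and 9.23 FPKM, against 2.03, 2.09 and 2.11 FPKM in DMSO, a change of 1.80 (SE 0.0856). In all of these genes every isoxaben library was above every DMSO library, as was so for 23% of all genes tested. AT3G09010 rose by 1.57 (SE 0.172), with 8.71, 14.8 and 8.51 FPKM after isoxaben, against 2.74, 2.76 and 2.98 FPKM in DMSO. Isoxaben replicate 2 was the highest of its group for AT1G51890, AT5G25440, B120 and AT3G09010.

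**Figure D2:**
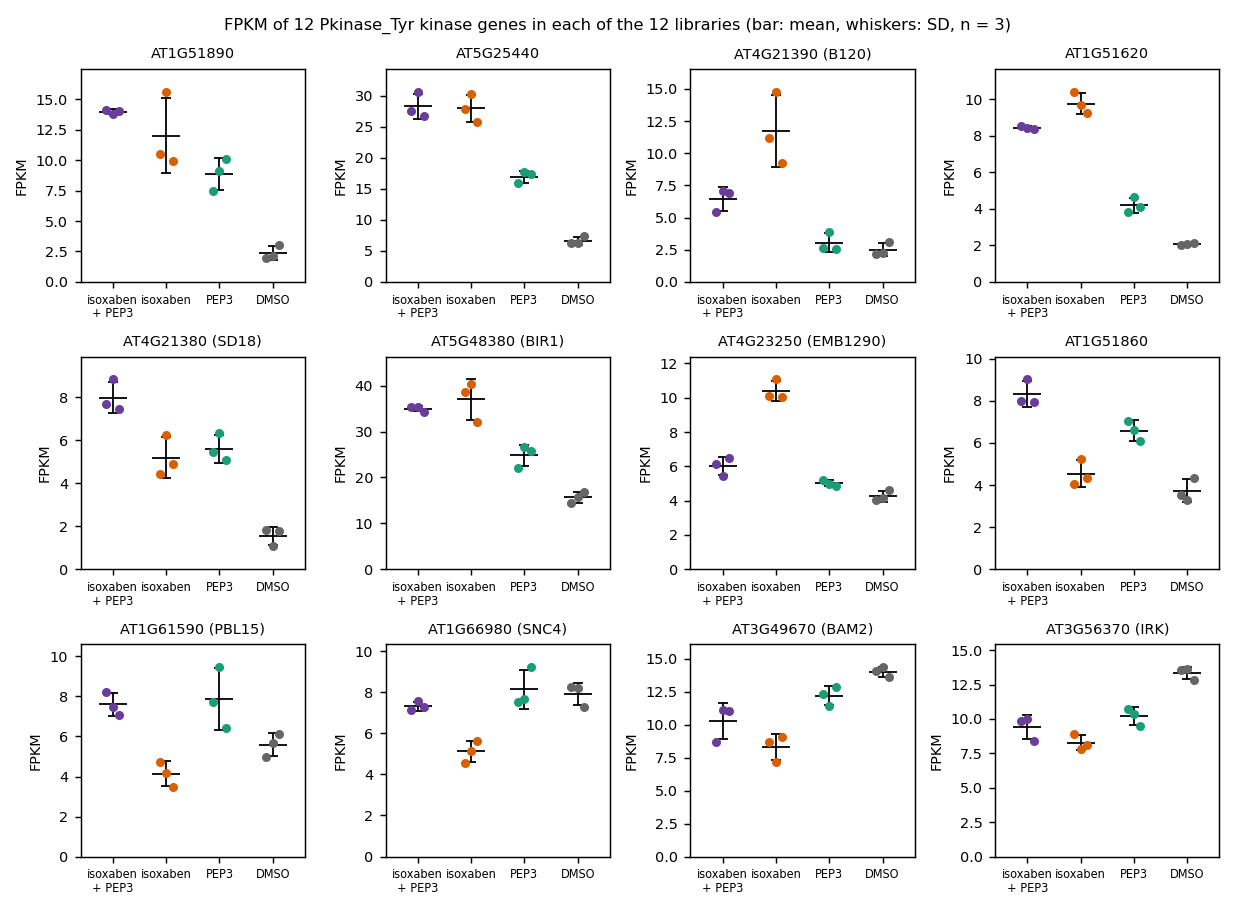
FPKM of 12 Pkinase_Tyr kinase genes in each library, with points for the 3 libraries of both treatments, isoxaben, PEP3 and DMSO, a bar for the mean and whiskers for the SD. AT1G51890, AT5G25440 and AT1G51620 are lowest in DMSO and intermediate after PEP3, B120 and EMB1290 are highest after isoxaben alone, and BAM2 and IRK are highest in DMSO.

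Among receptor-like cytoplasmic kinases, which relay signals from surface receptors, 5 of 11 PBL genes rose after isoxaben and 1 fell. PBL20 (chromosome 4, 9831077 to 9833138) had 3.31, 3.03 and 3.36 FPKM after isoxaben, against 0.286, 0.478 and 0.566 FPKM in DMSO, where it rested on 10, 14 and 17 fragments, and rose by 1.56 (SE 0.125). Its DMSO mean was under the 0.5 FPKM threshold, which it passed through the treated libraries. PBL2 rose by 1.37, PBL19 by 1.16, PBL11 by 0.83 and PBL17 by 0.39. PBL15 had 4.73, 4.17 and 3.48 FPKM after isoxaben, against 4.99, 5.65 and 6.12 FPKM in DMSO, and fell with a change of -0.36 (limma adjusted p 0.0469), a call just past the threshold that was lost without isoxaben replicate 2 (0.0887) or 3 (0.163), DMSO replicate 2 (0.107) or 3 (0.143), PEP3 replicate 1 (0.0578), or any 1 library of the combined treatment (0.0532 to 0.0603). Further genes of this kind that rose were PCRK1, a kinase of pattern-triggered immunity, by 1.55, and RIPK, which phosphorylates the immune regulator RIN4, by 1.06. RIPK had 22.5, 25.2 and 22.2 FPKM after isoxaben, against 10.3, 10.8 and 10.9 FPKM in DMSO. PBL2, PBL19, PBL11 and PCRK1 were chosen for mention after their values were seen. Of the 7 BSK genes, substrates of the brassinosteroid receptor, BSK6 rose by 0.85 and BSK7 by 0.25, and 5 were not called. The BSK7 call was lost without isoxaben replicate 1 (limma adjusted p 0.0539).

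Of the 19 genes described as S-domain or S-locus kinases, which carry a lectin-like outer domain, 8 rose and none fell after isoxaben by limma (1 was lower at an unadjusted p under 0.05, and voom on the recovered fragments called 0 lower). SD18 (SD1-8, also ARK3) had 4.44, 6.25 and 4.88 FPKM after isoxaben, against 1.84, 1.07 and 1.77 FPKM in DMSO, a change of 1.28 (SE 0.143). AT1G61370 rose by 0.99 and SD17 (also ARK1) by 0.59. B120 is not counted among the 19, because its deposited description does not name the domain. Of the 47 genes described as leucine-rich repeat kinases, 14 rose and 6 fell.

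Co-receptors and their regulators from the panel of role lists were represented by 3 BIR genes, which encode receptor-like partners of the co-receptor BAK1. BIR1, a suppressor of cell death and defence, had 38.6, 40.3 and 32.1 FPKM after isoxaben, against 14.5, 15.7 and 16.9 FPKM in DMSO, a rise of 1.18 (SE 0.0928). BIR2, which holds BAK1 away from pattern receptors, rose by 0.63, with 10.4, 10.9 and 8.80 FPKM after isoxaben, against 5.82, 6.07 and 6.43 FPKM in DMSO. AT1G27190 (BIR3) had 11.9, 11.2 and 11.4 FPKM after isoxaben, against 11.6, 11.5 and 11.5 FPKM in DMSO, and was not called (limma adjusted p 0.998). Thus 2 of these 3 rose, and the third had overlapping groups.

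Among receptors of growth peptides, CLV1, the CLAVATA3 receptor that limits stem cell number, had 8.28, 7.59 and 7.18 FPKM after isoxaben, against 10.3, 9.56 and 10.0 FPKM in DMSO, a fall with a change of -0.34 (SE 0.0804, limma adjusted p 0.00547). Its relative BAM2 (chromosome 3, 18417568 to 18421263) had 8.69, 7.20 and 9.04 FPKM, against 14.0, 14.4 and 13.6 FPKM in DMSO, a change of -0.69 (SE 0.102). RCH2 (also RGI2), a receptor of root meristem growth factor peptides, was not called (change 0.11, limma adjusted p 0.356). Of the 24 growth peptide receptors on the panel, these 3 belong to the 237, and 2 of them fell. Of its 4 brassinosteroid receptors, 0 belong to the 237. BAM2 overlaps a gene on the opposite strand over 20.5% of its span.

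The lowest changes after isoxaben also included AT5G24100, an inactive leucine-rich repeat kinase by its description, with 0.705, 0.988 and 0.581 FPKM after isoxaben, against 2.05, 2.22 and 1.96 FPKM in DMSO (change -0.81, SE 0.139). IRK, a leucine-rich repeat receptor kinase that restricts cell division in the root endodermis, had 8.89, 7.80 and 8.14 FPKM after isoxaben, against 13.6, 13.6 and 12.8 FPKM in DMSO (change -0.63, SE 0.0842). APK1B changed by -0.58, SNC4, an atypical receptor-like kinase whose gain-of-function allele activates defence, by -0.55, and AT2G18890 by -0.54. Of the panel's 13 wall and surface growth kinases 4 are among the 237. GHR1 (AT4G20940), a receptor-like pseudokinase of stomatal closure, fell (change -0.37, limma adjusted p 0.0136). TMK4, IMK2 and MRH1 (MDIS2 in the deposited table) were not called. The GHR1 call was lost without DMSO replicate 1 (limma adjusted p 0.0580).

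The proline-rich extensin-like receptor kinases (PERK), whose outer domain resembles wall extensins, were divided: PERK1 rose by 0.50, and 3 of the 5 fell. PERK1 had 41.1, 42.2 and 36.6 FPKM after isoxaben, against 26.1, 28.7 and 29.4 FPKM in DMSO. PERK15 had 2.39, 2.33 and 2.07 FPKM, against 4.19, 3.26 and 3.75 FPKM in DMSO (change -0.53), and PERK10 and PERK14 changed by -0.43 and -0.41. The PERK14 call was lost without isoxaben replicate 2 (limma adjusted p 0.0529). Of the panel's 18 immune and damage kinases only 3 belong to the 237, and the others are not described. All 3 rose, where 17.3% of all genes tested did. They are RIPK, PERK1 and CORK1 (AT1G56145), the receptor of cellooligomers released from cellulose. CORK1 had 8.04, 9.14 and 6.84 FPKM after isoxaben, against 6.35, 6.19 and 6.15 FPKM in DMSO, a small change of 0.31 (SE 0.0979, limma adjusted p 0.0269). The CORK1 call was lost without isoxaben replicate 1 (limma adjusted p 0.0687) or 2 (0.126) and without any 1 of the DMSO libraries (0.0567 to 0.0680).

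Among soluble kinases, CTR1 had 49.4, 49.8 and 49.1 FPKM after isoxaben, against 33.3, 34.6 and 32.1 FPKM in DMSO, a rise of 0.55 (SE 0.0606). EDR1, a negative regulator of defence and senescence, rose by 0.30 (limma adjusted p 0.0165), a call lost without DMSO replicate 2 (0.0586) or isoxaben replicate 1 (0.0626). HT1, a regulator of stomatal response to CO2, had 1.39, 1.24 and 1.08 FPKM, against 0.841, 1.18 and 1.44 FPKM in DMSO, and was not called. Of the 4 STY genes, STY13 rose by 0.46 and STY8 by 0.22, and the STY8 call was lost when any 1 isoxaben or DMSO library was left out (limma adjusted p 0.0512 to 0.118). Of the 112 genes without a membrane stretch, 43 rose (38.4%) and 5 fell (4.46%), and of the 124 with one, 36 rose (29.0%) and 15 fell (12.1%).

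**Figure D3:**
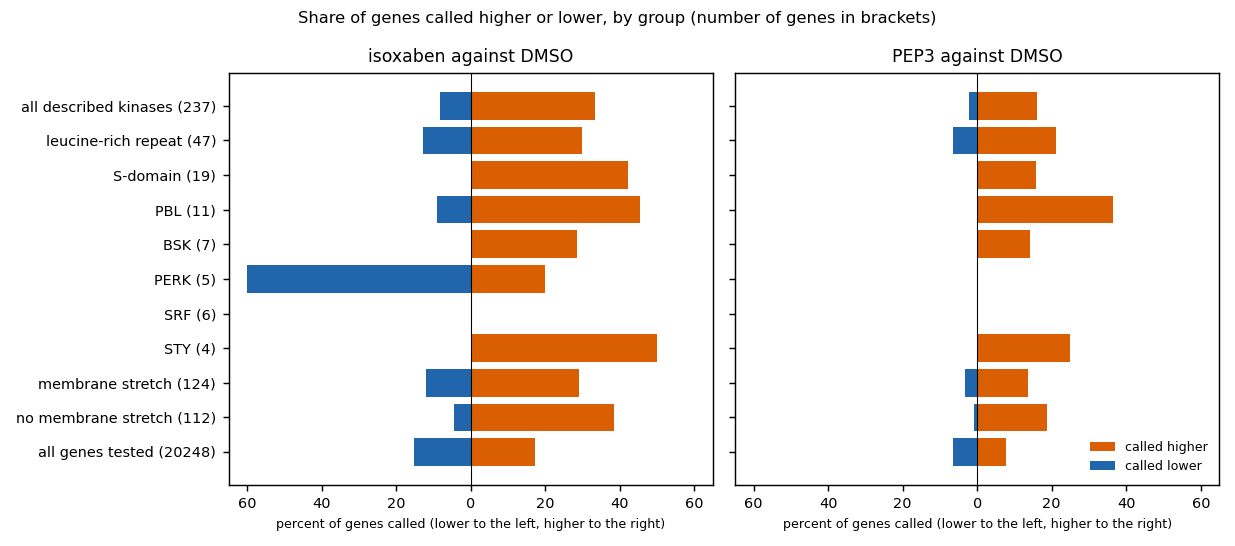
Percent of genes called higher (orange, right) or lower (blue, left) after isoxaben and after PEP3, each against DMSO, in groups of the 237 kinase genes and over all 20248 genes tested. Rises exceed falls in each group drawn with a call except PERK after isoxaben, and SRF has no call in either panel. The leucine-rich repeat and S-domain groups hold only genes whose deposited description names the class.

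Called rises were not spread evenly over neighbouring genes, which also differed in level. In the run AT1G51860, AT1G51870, AT1G51880 and AT1G51890 on chromosome 1, AT1G51890 rose after isoxaben, and the other 3 were not called (changes 0.23, 0.02 and -0.13, in the order given). Without DMSO replicate 3, AT1G51860 passed the threshold (limma adjusted p 0.0497). Mean levels along this run were 5.79, 0.762, 0.749 and 9.32 FPKM. Of the 59 kinases under 2 FPKM only 10 were called after isoxaben, and the part of level in these runs was not tested. In the S-domain run from AT1G61370 to AT1G61430, 3 of 5 genes rose, AT1G61370 by 0.99, AT1G61420 by 0.65 and AT1G61430 by 0.38. The AT1G61430 call was lost without isoxaben replicate 1 (limma adjusted p 0.121) or 3 (0.106) and without DMSO replicate 2 (0.0628) or 3 (0.144). In the next run, from AT1G61480 to AT1G61550, 1 of 4 rose, AT1G61550 (change 0.51). Mean levels in this run were 0.552, 1.02, 1.54 and 0.539 FPKM. AT1G61550 passed the 0.5 FPKM threshold through the treated libraries, so its rise is partly set by the rule. No gene of the 237 had a copy of at least 95% identity over at least 50% of its span, and the closest pair was AT1G61400 and AT1G61430 with 88.0%. AT1G66880, next to LRK10L genes, rose by 1.30 but overlaps genes on the opposite strand over 64.3% of its span, and AT1G61420 does so over 50.9%. The library protocol names no step that marks the strand, so fragments of such pairs cannot be told apart.

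PEP3 was compared with DMSO to give the response to the peptide alone. Of the 237 kinases, 38 rose and 5 fell, together 18.1%, against 14.3% of all genes tested. The share that rose was 16.0%, against 7.84% of all genes tested, and the share that fell 2.11%, against 6.45%. The median change was 0.07 over the kinases and 0.01 over all genes tested, and 3 kinases changed by at least 1, all of them higher. Leaving out DMSO replicate 1 gave 28 kinases, and leaving out PEP3 replicate 3 gave 27.

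The 3 rises above 1 belonged to AT1G51890, SD18 and AT5G25440. AT1G51890 had 7.45, 9.11 and 10.1 FPKM after PEP3, against 1.96, 2.16 and 3.06 FPKM in DMSO (change 1.55, SE 0.158, limma adjusted p 3.30e-05). SD18 had 5.44, 6.33 and 5.08 FPKM, against 1.84, 1.07 and 1.77 FPKM in DMSO (change 1.38, SE 0.143, limma adjusted p 3.49e-05). AT5G25440 had 15.9, 17.7 and 17.4 FPKM, against 6.27, 6.28 and 7.37 FPKM in DMSO (change 1.24, SE 0.0853). The PEP3 and DMSO libraries did not overlap for any of these. Every PEP3 library was above every DMSO library for 16.8% of all genes tested. SD17 followed with 1.68, 2.10 and 1.35 FPKM after PEP3, against 0.666, 0.512 and 0.295 FPKM in DMSO (change 0.86), and AT1G11300 with 1.71, 2.32 and 1.83 FPKM, against 0.536, 0.801 and 0.546 FPKM in DMSO (change 0.86). The DMSO mean of SD17 was under the 0.5 FPKM threshold, which it passed through the treated libraries. AT1G11300 is 87.9% identical to its neighbour AT1G11303, which was not called. AT5G42440, a kinase without a membrane stretch, had 6.91, 6.50 and 6.46 FPKM, against 2.68, 3.57 and 4.00 FPKM in DMSO, a change of 0.80.

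By group, 3 of 19 S-domain, 10 of 47 leucine-rich repeat, 4 of 11 PBL, 1 of 7 BSK and 1 of 4 STY genes rose after PEP3. Of the 5 PERK and 6 SRF genes limma called 0. At an unadjusted p under 0.05 there were 0 PERK genes and 1 SRF gene, lower, and voom also called 1 SRF gene lower. Falls belonged to 3 leucine-rich repeat genes by description, AT5G24100 (change -0.52), IMK2 (-0.43) and IRK (-0.36), and to CLV1 (-0.32) and AT5G58950 (-0.20). IMK2, a leucine-rich repeat kinase named for the inflorescence meristem, had 9.02, 9.14 and 8.49 FPKM after PEP3, against 12.4, 12.6 and 11.9 FPKM in DMSO. CLV1 had 7.71, 7.97 and 7.65 FPKM, against 10.3, 9.56 and 10.0 FPKM in DMSO. The falls were small, and those of AT5G24100, IRK, CLV1 and AT5G58950 were lost when DMSO replicate 1 was left out (limma adjusted p 0.0715, 0.0504, 0.0731 and 0.0540) and when PEP3 replicate 3 was left out (0.0843, 0.0520, 0.0544 and 0.0584). The AT5G24100 call was also lost without DMSO replicate 2 (0.0852) or PEP3 replicate 1 (0.0770), and the AT5G58950 call without any other 1 of the DMSO and PEP3 libraries (0.0596 to 0.119).

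On the panel, BIR1 rose by 0.63 after PEP3 and BIR2 by 0.39, while BIR3 was not called (change -0.12). BIR1 had 22.1, 26.5 and 25.8 FPKM after PEP3, against 14.5, 15.7 and 16.9 FPKM in DMSO. BIR2 lost its call without DMSO replicate 1 (limma adjusted p 0.0630) or PEP3 replicate 2 (0.0757). RIPK rose by 0.37 and CTR1 by 0.24. The CTR1 call was lost without DMSO replicate 1 (0.0560) or 3 (0.0599) and without PEP3 replicate 2 (0.0656) or 3 (0.0670). PERK1, CORK1, EDR1, HT1, BAM2, RCH2, TMK4, MRH1 and GHR1 were not called after PEP3.

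The combined treatment was set against DMSO and against PEP3 alone. Against DMSO, 84 kinases rose and 19 fell (43.5%, against 31.4% of all genes tested, 16.9% higher and 14.4% lower), and 17 changed by at least 1. AT1G51890 had 14.1, 13.8 and 14.1 FPKM after both treatments, the 3 libraries lying closer together than in the other groups, and rose by 2.16 against DMSO. Against PEP3 alone, 39 kinases rose and 1 fell (16.9%, against 8.26% of all genes tested, 6.02% higher and 2.25% lower), with a median change of 0.05 over the kinases and -0.01 over all genes tested. By limma 0 changed by at least 1. Leaving out PEP3 replicate 1 gave 22 kinases, and leaving out the second combined library also gave 22. Among the larger rises against PEP3 alone was that of B120, with 5.41, 7.07 and 6.89 FPKM after both, against 2.65, 3.91 and 2.58 FPKM after PEP3 (change 0.89). AT1G51620 had 8.56, 8.44 and 8.37 FPKM after both, against 3.85, 4.64 and 4.10 FPKM after PEP3 (change 0.87), and PCRK1 changed by 0.87. Of the 11 PBL genes, 6 rose against PEP3 alone.

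The isoxaben effect could thus be read a second time, in libraries whose values do not enter the difference between isoxaben and DMSO. The calls that chose the genes were not separate, since all 12 libraries shared 1 estimate of the spread. The 79 kinases that rose after isoxaben alone, by a median of 0.68, had a median change of 0.36 when isoxaben was added to PEP3. Of these, 77 were again higher, and 36 were called. The 20 that fell, with a median of -0.42, had a median of -0.20, and all 20 were again lower, 1 of them called. These genes were chosen for their change in the first comparison, so no test of the drop is given. The same counts for all genes tested that rose or fell after isoxaben were not computed, so they are not shown to be particular to the kinases.

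What PEP3 changed in seedlings that also received isoxaben was given by both treatments against isoxaben alone. Of the 237 kinases, 8 rose and 9 fell, together 7.17%, against 7.41% of all genes tested (3.32% higher and 4.09% lower), so that the kinases were called about as often as other genes. By limma 0 changed by at least 1. With unadjusted p under 0.05 the number was 50, for which no share over all genes tested was computed. Leaving out 1 library gave 6 to 17 calls. The number was 8, 10 and 11 without isoxaben replicates 1, 2 and 3. It was 6 and 8 without replicates 2 and 3 of the combined treatment.

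The largest rises were those of AT1G51860 and PBL15. AT1G51860, a leucine-rich repeat kinase gene in the run with AT1G51890, had 7.99, 9.02 and 7.94 FPKM after both treatments, against 4.06, 5.25 and 4.33 FPKM after isoxaben (change 0.75, SE 0.111, limma adjusted p 0.00130). PEP3 alone raised it by 0.69, to 7.06, 6.63 and 6.08 FPKM, against 3.51, 3.31 and 4.35 FPKM in DMSO, and isoxaben alone left it uncalled (change 0.23, limma adjusted p 0.134). PBL15 had 8.22, 7.49 and 7.09 FPKM after both, against 4.73, 4.17 and 3.48 FPKM after isoxaben (change 0.75, SE 0.130, limma adjusted p 0.00376). It rose after PEP3 alone, with 7.73, 9.49 and 6.43 FPKM, against 4.99, 5.65 and 6.12 FPKM in DMSO (change 0.42, limma adjusted p 0.0470). This call was as weak as that of its fall after isoxaben alone, and was lost without PEP3 replicate 1 (0.0884) or 2 (0.203), without any 1 DMSO library (0.0543 to 0.174), without isoxaben replicate 2 (0.0544) and without any 1 library of the combined treatment (0.0532 to 0.0622).

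SD18 rose further with both treatments, to 7.69, 8.84 and 7.45 FPKM, against 4.44, 6.25 and 4.88 FPKM after isoxaben (change 0.55, limma adjusted p 0.0352). This call was lost when any 1 library of the combined treatment, or isoxaben replicate 1 or 3, was left out (0.0668 to 0.130). AT1G11300 rose by 0.50, a call lost when any 1 library of the combined treatment or of isoxaben was left out (0.0565 to 0.115). SNC4 had 7.13, 7.56 and 7.27 FPKM after both, against 4.57, 5.16 and 5.63 FPKM after isoxaben (change 0.45), which was lost without isoxaben replicate 1 (0.0631) or replicate 2 of the combined treatment (0.0533). PBL17 rose by 0.33 and lost its call without isoxaben replicate 1 (0.111) or 3 (0.0563) or without replicate 2 (0.0976) or 3 (0.0819) of the combined treatment.

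On the lower side, B120 had 5.41, 7.07 and 6.89 FPKM after both, against 11.2, 14.8 and 9.20 FPKM after isoxaben (change -0.75, SE 0.171, limma adjusted p 0.0178). The groups did not overlap, as was so on the lower side for 13% of all genes tested. The call was lost without isoxaben replicate 2 (0.0658) or replicate 1 of the combined treatment (0.0712). EMB1290 had 6.16, 5.42 and 6.46 FPKM after both, against 10.1, 11.1 and 10.0 FPKM after isoxaben (change -0.70, SE 0.0881, limma adjusted p 0.000446), and it shares 23.7% of its span with a gene on its own strand. Neither gene was called after PEP3 alone (changes 0.20 and 0.20). BSK4 changed by -0.55 and lost its call without isoxaben replicate 3 (0.0627) or replicate 2 of the combined treatment (0.0757). AT5G45840 changed by -0.49, AT5G40540 by -0.47 and AT1G53430 by -0.41, and each lost its call under leave-outs. For AT5G45840 these were isoxaben replicates 1 and 3 and each library of the combined treatment (0.0508 to 0.128). For AT5G40540 they were isoxaben replicates 2 and 3, replicates 2 and 3 of the combined treatment and DMSO replicate 2 (0.0502 to 0.129), and for AT1G53430 isoxaben replicates 1 and 2 and replicates 1 and 3 of the combined treatment (0.0597 to 0.0804).

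**Figure D4:**
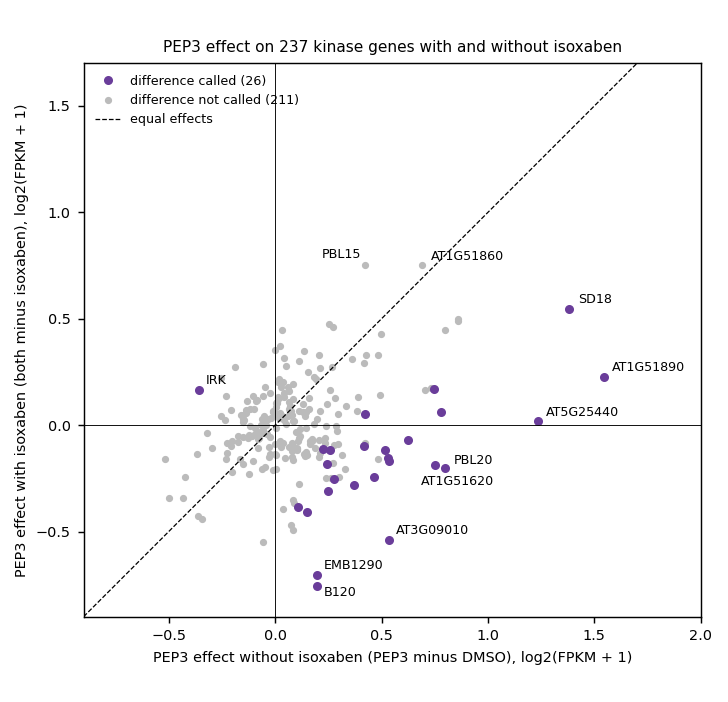
The PEP3 effect on each of the 237 kinase genes without isoxaben (PEP3 minus DMSO, horizontal) and with isoxaben (both minus isoxaben, vertical), as differences of log2(FPKM + 1). The 26 genes whose effects were called different (purple) lie below the dashed line of equal effects except IRK, and AT1G51860 and PBL15 are among the genes whose difference was not called.

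Whether the effects of isoxaben and PEP3 added up on the log2 scale was tested as the interaction, which subtracts what PEP3 did in mock-treated seedlings from what it did in isoxaben-treated ones. It was called for 26 kinases, 25 below and 1 above additivity, or 11.0%, against 6.24% of all genes tested (4.30% below and 1.94% above). The median was -0.06 over the kinases and -0.01 over all genes tested. Of the 72 kinases with a mean of at least 10 FPKM, 16 were below additivity, of the 106 with 2 to under 10 FPKM 8, and of the 59 under 2 FPKM 1. The shares of all genes tested in these level ranges were not computed. Leaving out DMSO replicate 1 gave 15 kinases, DMSO replicate 2 gave 13, isoxaben replicate 2 gave 15, PEP3 replicates 2 and 3 gave 14 and 17, and combined replicate 3 gave 15.

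In AT1G51890 the interaction was -1.32 (SE 0.224, limma adjusted p 0.00471): PEP3 raised it by 1.55 without isoxaben, and with isoxaben the change was 0.23 and not called. AT5G25440 stood at 27.6, 30.6 and 26.8 FPKM after both and at 27.9, 30.2 and 25.8 FPKM after isoxaben, so that the PEP3 effect of 1.24 seen without isoxaben was 0.02 with it (interaction -1.22, SE 0.121, limma adjusted p 0.000233). The libraries of both treatments and of isoxaben alone overlapped for these genes. PBL20 had 3.08, 2.61 and 2.39 FPKM after both, against 3.31, 3.03 and 3.36 FPKM after isoxaben (interaction -0.998). AT3G09010 had an interaction of -1.07 (limma adjusted p 0.0209), which was lost without DMSO replicate 1 (0.0542) or 2 (0.0508) and without PEP3 replicate 3 (0.0521). B120 had -0.95 (limma adjusted p 0.0357), lost without DMSO replicate 1 or 2, isoxaben replicate 1 or 2, PEP3 replicate 2 or any 1 library of the combined treatment (0.0510 to 0.0955). IRK had 9.87, 9.98 and 8.42 FPKM after both and 8.89, 7.80 and 8.14 after isoxaben. Its levels were 10.7, 10.4 and 9.49 FPKM after PEP3, and 13.6, 13.6 and 12.8 in DMSO. IRK fell after each treatment alone. After both, its change against DMSO was -0.46, a smaller fall than those of each treatment alone add up to. In this sense IRK was the 1 gene above additivity (interaction 0.52, limma adjusted p 0.0209). Its call was lost when any 1 of 5 libraries was left out, DMSO replicate 1 or 2, isoxaben replicate 2, PEP3 replicate 3 or replicate 2 of the combined treatment (0.0529 to 0.0560).

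The PEP3 effect was also read in libraries whose values do not enter the difference between PEP3 and DMSO, though the calls shared the spread of all libraries. The 38 kinases raised by PEP3 alone, by a median of 0.49, had a median change of 0.06 when PEP3 was added to isoxaben. Of these 38, 22 were again higher, 6 were called higher, 1 was called lower, and 36 had a smaller change. The 5 that PEP3 lowered, with a median of -0.36, had a median of -0.07. No test is given here either, since the genes were chosen by their change. The same values for all genes tested that PEP3 raised or lowered were not computed, so they are not shown to be particular to the kinases.

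Whole seedlings hold many organs, and in bulk RNA fewer cells of a type and less RNA per cell cannot be told apart. Of 11 organ marker genes none was at 0 in any library. The 6 root markers summed to 1298 to 1587 FPKM after both treatments, 1981 to 2516 after isoxaben, 1651 to 1721 after PEP3 and 2221 to 2276 in DMSO, nearly all of it from PYK10. The other root markers did not all move alike: after both treatments EXPA7 had 21.1, 25.3 and 30.4 FPKM, against 16.8, 23.8 and 20.6 FPKM in DMSO, and TIP2-3 had 1.51, 1.06 and 2.48 FPKM, against 5.91, 7.07 and 7.30 FPKM in DMSO. These groups overlapped for EXPA7, COBL9, SCR and PLT1 and lay apart for TIP2-3, as was so on the lower side for 21.8% of all genes tested. The 5 shoot markers summed to 16175 to 16464 FPKM after both, 14943 to 16639 after isoxaben, 16518 to 18213 after PEP3 and 18284 to 19052 in DMSO. Their part in the kinase results was not tested. Calls were also more frequent at higher levels: after isoxaben 46 of the 72 kinases with a mean of at least 10 FPKM changed, and 10 of the 59 under 2 FPKM. Shares by level over all genes tested were not computed, and the shares of all genes given above are not matched for level.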

How the data were processed

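Poly(A)-selected, paired-end RNA sequencing libraries of whole seedlings were analysed, 12 in all, 3 for each of 4 treatments, grouped by the labels. Per the file headers, the deposited values are FPKM, in 1 table for 32833 genes, with lengths, positions and domain family labels. HISAT2 2.0.5 and the TAIR10 build are named in the submitters' processing notes; how fragments were counted, with which annotation and strand setting, is not stated in the labels. Value columns were assigned by their names, and 0 stayed without a library. All 237 kinases, and 32548 genes of the table, matched the TAIR10.1 annotation by identifier. FPKM times gene length gave whole fragments for 100% of values (tolerance 0.01), 16995775 to 22793764 per library.

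The test was limma (3.58.1, R 4.3.3; lmFit, eBayes with trend). It ran on log2(FPKM + 1) of the 20248 genes averaging 0.5 FPKM or more, with 1 mean per treatment over the 12 libraries and no covariates. Benjamini-Hochberg adjustment covered all genes tested, and genes under 0.05 were called. These p-values rest on the spread between libraries of the same group, pooled over the 4 groups and drawn towards a trend over all genes tested. Alternatives were other pseudocounts, filters and scalings, fits of the compared groups only, a replicate block, voom on the recovered fragments and leaving out each library. The fit was tested on simulated data. Copies were sought with BLAST 2.17.0, and features and figures were made in Python 3.11.15.

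Named were the called kinases at both ends of the ranking, 6 at the top and 6 at the bottom, in 4 comparisons (isoxaben and PEP3, each with DMSO as its control, the combined treatment against isoxaben, and the interaction), and the 16 kinases of a panel of 72 genes in role lists. Members of small families or runs of neighbouring genes named beside their counts were chosen after their values were seen. The members and lists were chosen with earlier results of these data known.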

Additional observations from a re-analysis of the deposited data

Results flagged for a closer look

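For 13 of the 26 kinases with a called interaction, those that the naming rule covers, the PEP3 effect in seedlings with isoxaben differed from the PEP3 effect in seedlings without it (limma, Benjamini-Hochberg adjusted p under 0.05 over all genes tested). The values are differences of the 2 effects, the one with isoxaben first, on the log2(FPKM + 1) scale. Among receptor kinase genes the difference was -1.32 for AT1G51890, -0.95 for B120, -0.90 for EMB1290, -0.83 for SD18, -0.70 for BIR1 and -0.56 for AT1G53430. Among genes without a membrane stretch it was -1.22 for AT5G25440, -1.07 for AT3G09010, -0.998 for PBL20, -0.94 for AT1G51620, -0.65 for RIPK and -0.42 for CTR1. For IRK, which fell after each treatment alone, it was 0.52. The calls of SD18 and AT1G53430 were lost when single libraries were left out, SD18 without DMSO replicate 2, isoxaben replicate 2, PEP3 replicate 2 or replicate 1 or 3 of the combined treatment (adjusted p 0.0524 to 0.0791), and AT1G53430 without DMSO replicate 1 or 2, isoxaben replicate 1 or 2, PEP3 replicate 2 or 3 or replicate 3 of the combined treatment (0.0531 to 0.0730).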

How the results depend on the processing

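Single kinases were followed through 23 alternatives for 348 combinations of gene and comparison, and no called value changed direction. Of the 162 called, 115 were called under every alternative and 47 were lost under at least 1, while 21 of those not called passed the threshold under at least 1. Requiring a change of at least 1 left 20 kinases for isoxaben against DMSO, 3 for PEP3 against DMSO, 17 for both against DMSO, 0 for both against isoxaben, 0 for both against PEP3 and 3 for the interaction. For both against isoxaben, fitting only the groups compared gave 8 kinases and voom on the recovered fragments 27. Leaving out 1 library gave 86 to 99 kinases for isoxaben against DMSO, 27 to 44 for PEP3 against DMSO, 84 to 105 for both against DMSO, 6 to 17 for both against isoxaben, 22 to 44 for both against PEP3 and 13 to 29 for the interaction. The cause of these changes was not tested. Quantile normalization gave 72 higher and 27 lower kinases for isoxaben against DMSO, in place of 79 and 20. Same-numbered libraries of different treatments did not deviate together (r from -0.11 to 0.10 over 18 pairs), so the numbers are not taken as pairs. With the replicate number as a block the counts were 98 for isoxaben against DMSO, 39 for PEP3 against DMSO, 96 for both against DMSO, 15 for both against isoxaben, 39 for both against PEP3 and 24 for the interaction. Kinases with few fragments, such as PBL20 in DMSO, are limited by depth.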
